A study of Mus musculus with 7 samples.

Results

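Retinoic acid is the active form of vitamin A, and 9 genes of its pathway were examined in mouse cortical neurons. They carry retinoids, make retinoic acid, break it down or respond to it, or are paralogues of such genes. The genes were *Rbp4*, *Crabp1*, *Crabp2*, *Rdh10*, *Aldh1a1*, *Aldh1a7*, *Cyp26a1*, *Cyp26b1* and *Rarb*. They were chosen by name, with earlier results of these data known. Every probe set of the array that is annotated to 1 of them alone was taken. This gave 10 probe sets of 45101 on the array, since *Rdh10* has 2. Of the 10, 8 reached a level of 50 on at least 1 array and entered the test, and those of *Crabp2* and *Aldh1a1* lay under 50 on every array. Although receptors belong to the pathway, only *Rarb* stands for them among the 9 genes.

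The neurons came from the cortex of C57/Bl6J mouse embryos at embryonic day 16 and were cultured for 16 days in vitro. In the luciferase group (4 arrays, replicates 1 to 4) the cultures were transduced with a lentivirus that carries a short hairpin RNA (shRNA) against luciferase, an enzyme that mouse cells lack, and were harvested after 2 weeks of treatment. In the blank group (3 arrays, replicates 5 to 7) the cultures were untransduced, or naïve, and were otherwise of the same strain, age and tissue. The methods also name green fluorescent protein (GFP), co-expressed from the virus, so GFP belongs to the luciferase group too. Both were grown, according to the methods, in a serum-free medium with the B27 supplement, whose standard formulation contains a retinyl ester. The luciferase shRNA is the control of a study of knocked-down autism genes. The comparison with blank asks what goes with transduction by a virus whose hairpin has no mouse target. Virus, GFP and hairpin cannot be told apart in this design. According to the methods the virus was harvested in medium of the cells that produced it. Whether blank cultures received such medium is not stated, so its part cannot be told apart either. The arrays are of separate cultures in randomized plates, and nothing in the sources ties them to separate litters, so the p-values measure the spread between these cultures.

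Retinol travels in the blood on *Rbp4* and is oxidised inside cells in a pair of steps. The first, to retinaldehyde, is by enzymes such as *Rdh10*, and the next, to retinoic acid, by enzymes such as *Aldh1a1*. Inside the cell retinoic acid is bound by *Crabp1* and *Crabp2*, and the *Cyp26* enzymes inactivate it. What reaches the nucleus acts on retinoic acid receptors, which sit on DNA with retinoid X receptors and switch on target genes, *Rarb* and *Cyp26a1* among them. In the embryonic brain retinoic acid is known for its roles in hindbrain patterning and in the differentiation of neurons.

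The promoters of *Rarb* and *Cyp26a1* are shown because they are textbook targets of retinoic acid and because their letters hold the paired site that the receptors bind, the DR5 element. The 100 bases just before the RefSeq transcription start (GRCm38.p6, written 5′ to 3′ on the strand of the gene, with the DR5 element in capitals) lie at chr14:16575477-16575576 on the minus strand for *Rarb* and at chr19:37697708-37697807 on the plus strand for *Cyp26a1*, so both stretches lie outside the transcript and the exons.
Rarb: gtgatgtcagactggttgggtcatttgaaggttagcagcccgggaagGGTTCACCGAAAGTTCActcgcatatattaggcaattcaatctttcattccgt
Cyp26a1: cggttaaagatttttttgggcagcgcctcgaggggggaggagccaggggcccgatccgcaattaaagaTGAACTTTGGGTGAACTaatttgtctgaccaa

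The element was searched as 2 half-sites of the same orientation, each AGGTCA or GGGTCA or AGTTCA or GGTTCA, with 5 bases between them, on both strands. In *Rarb* it runs on the strand of the gene and ends 36 bases before the start, and in *Cyp26a1* it runs on the opposite strand and ends 15 bases before it. Of 32851 RefSeq windows that reach from 250 bases before a start to 50 after it, 32 (0.0974%) held a DR5 element. Of the 9 genes 7 had such a window, and *Rarb* and *Cyp26a1* were the 2 with the element. With the same half-sites 1 or 2 bases apart (DR1 and DR2, in 0.222% and 0.268% of windows, which can share half-sites with a DR5) none of the 7 had a match. A match is a description of letters and does not show that a receptor binds there.

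The promoters of *Aldh1a1* and *Aldh1a7* are shown because these neighbouring paralogues on chromosome 19 are nearly identical just before the start, while their probe sets read very differently in the comparison below. The stretches lie at chr19:20601868-20601967 on the plus strand for *Aldh1a1* (the nearer in sequence of its 2 RefSeq windows) and at chr19:20727557-20727656 on the minus strand for *Aldh1a7*, again upstream of the transcript, with the bases that differ in capitals.
Aldh1a1: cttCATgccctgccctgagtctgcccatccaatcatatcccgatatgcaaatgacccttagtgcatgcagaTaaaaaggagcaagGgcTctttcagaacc
Aldh1a7: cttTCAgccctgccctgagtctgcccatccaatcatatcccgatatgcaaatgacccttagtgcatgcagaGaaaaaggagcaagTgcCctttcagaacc

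These stretches were identical at 94 of 100 bases and differed at 6. The other *Aldh1a1* window matched the *Aldh1a7* stretch at 30 of 100 bases.

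In the comparison of luciferase with blank, *Crabp1* rose about 3-fold and *Aldh1a7* about 2-fold, and *Cyp26a1* fell to 77.5% of blank. Of the other 6 genes, 4 did not pass the test and *Crabp2* and *Aldh1a1* were under the level filter. A probe set was called where limma gave an adjusted p of at most 0.05 together with a change of at least 1.5-fold. *Crabp1* and *Aldh1a7* were called, that is 2 of the 8 tested probe sets, where 4.19% of all 22748 tested probe sets were called, 2.9% higher and 1.29% lower. At the adjusted p alone 3 of 8 passed, 2 higher and 1 lower, where the share over all tested probe sets was 24.5%, with 16.2% higher and 8.26% lower. The groups did not overlap in 5 of 8, with luciferase above in 4 and below in 1, where 34.8% of all tested probe sets had groups that did not overlap (22.5% above, 12.3% below). With so many probe sets apart in the whole table, the 5 of 8 is not read as a result about retinoid genes. *Aldh1a7* entered the test only through its luciferase arrays, so these counts lean towards a difference. With no filter on level 3 of all 10 probe sets passed the adjusted p, where the share over all probe sets was 11.9%.

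**Figure D1:**
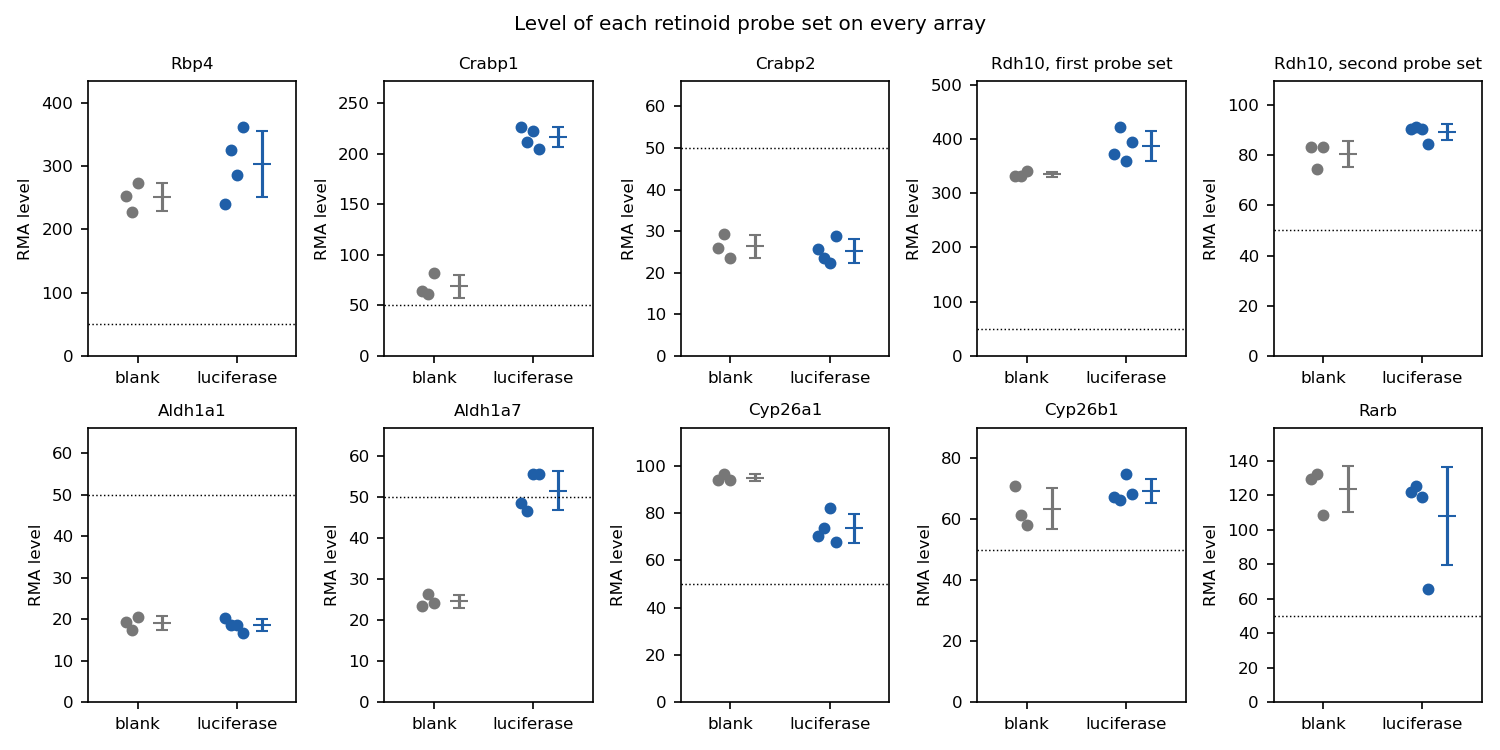
The RMA level (linear scale, from 0) of each of the 10 probe sets is plotted for the 3 blank arrays in grey and the 4 luciferase arrays in blue, with the mean and SD beside the points and a dotted line at 50. *Crabp1* and *Aldh1a7* are well apart upwards, *Cyp26a1* is apart downwards, *Crabp2* and *Aldh1a1* lie under the line on every array, and 1 luciferase array of *Rarb*, at 65.4, lies far under the other 3.

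Among the binding proteins, *Crabp1*, which encodes the cytosolic protein that holds retinoic acid and is linked to its breakdown, had the largest change. Its level was 226, 212, 223 and 205 in luciferase replicates 1 to 4, and 63.9, 60.9 and 82.2 in blank replicates 5 to 7. Every luciferase array stood more than 2-fold above every blank array, and the highest blank array was replicate 7. The means were 217 ± 9.72 (SD, n = 4) and 69.0 ± 11.5 (SD, n = 3), which is 1.66 on the log2 scale (standard error 0.107, 95% interval 1.42 to 1.90, adjusted p = 6.7e-05 from limma) or 3.16-fold. The two-sided exact permutation test over the 35 ways of placing the arrays gave p = 0.029, the smallest that 4 against 3 arrays allow. Of the 22748 tested probe sets 4 rose more than *Crabp1*.

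*Crabp2*, which encodes the binding protein that hands retinoic acid to the receptors, showed nothing of the kind at the level this probe set reads. It read 25.8, 23.6, 22.3 and 28.9 in luciferase neurons and 26.02, 29.3 and 23.7 in blank neurons. All 7 values lay under 50 and the groups overlapped. In a fit with no filter on level the log2 difference was -0.07 (95% interval -0.31 to 0.18, adjusted p = 0.72), an interval that leaves out a 1.5-fold change in both directions. At levels this low a probe set may be reading mostly background, so the absence of a difference at this probe set is not shown to be one of *Crabp2* mRNA.

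*Rbp4*, which encodes the carrier of retinol in plasma, was spread widely within the luciferase group. Its level was 239, 325, 286 and 361 in luciferase neurons and 252, 228 and 273 in blank neurons. Luciferase replicate 1 lay inside the range of blank, and the other 3 lay above it. The log2 difference of 0.26 (95% interval -0.04 to 0.56) did not pass (adjusted p = 0.19 from limma, and p = 0.2 in the exact permutation test).

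Of the enzymes that make retinoic acid, *Rdh10*, which carries out the first oxidation of retinol, was a little higher at both of its probe sets without passing the test. The first probe set read 372, 422, 359.8 and 395 in luciferase neurons and 332, 331 and 341 in blank neurons. The second read 90.4, 91.1, 90.5 and 84.4 in luciferase neurons and 83.2, 74.5 and 83.5 in blank neurons. In each probe set all luciferase arrays lay above all blank arrays, in the second by less than 1 unit. The log2 differences were 0.21 (95% interval 0.04 to 0.38, adjusted p = 0.076) and 0.15 (95% interval -0.02 to 0.32, adjusted p = 0.17), and the exact permutation test gave p = 0.057 for each. With array weights in the fit, the first probe set passed (0.21, adjusted p = 0.029). The probe sets are of 1 gene and are not replicates of each other.

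*Aldh1a7*, a rodent paralogue of *Aldh1a1*, rose from below the level filter to about that level. It read 48.7, 46.6, 55.8 and 55.6 in luciferase neurons and 23.4, 26.5 and 24.2 in blank neurons. The groups lay far apart, and luciferase replicates 3 and 4 were the 2 arrays at 50 or more. The means were 51.7 ± 4.73 (SD, n = 4) and 24.7 ± 1.57 (SD, n = 3), which is 1.06 on the log2 scale (standard error 0.091, 95% interval 0.86 to 1.27, adjusted p = 2.3e-04 from limma) or 2.09-fold, and the exact permutation test gave p = 0.029. Since the blank arrays lie where background makes up much of a signal, the size of the change is uncertain. With blank set to 50, the mean of luciferase would be at least 1.03-fold higher. It is not tested where a probe set must reach 100 on 1 array or 50 on every array. Whether the enzyme that *Aldh1a7* encodes makes retinoic acid was not tested.

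*Aldh1a1*, which encodes a retinaldehyde dehydrogenase, showed no such rise at the level its probe set reads. It read 20.2, 18.6, 18.6 and 16.7 in luciferase neurons and 19.2, 17.5 and 20.6 in blank neurons, all under 50 and overlapping. With no filter on level the log2 difference was -0.05 (95% interval -0.26 to 0.17, adjusted p = 0.79). In the same fit the interval of *Aldh1a7*, 0.85 to 1.28, lies wholly above that of *Aldh1a1*. Such low readings of *Aldh1a1* may be mostly background, so a difference between the mRNAs of the paralogues is not shown. The sequences of the array's probes were not used here, so whether the *Aldh1a7* probe set also reads transcripts of *Aldh1a1* was not tested.

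The enzymes that break retinoic acid down did not move alike. *Cyp26a1*, a target of retinoic acid that inactivates it, read 70.5, 73.9, 82.0 and 67.9 in luciferase neurons and 94.2, 96.7 and 93.9 in blank neurons. All 4 luciferase values were lower than the lowest blank value, and the blank arrays lay within 3 units of each other. The means were 73.6 ± 6.13 (SD, n = 4) and 94.9 ± 1.51 (SD, n = 3), or 77.5% of blank, and the level fell by 0.37 on the log2 scale (standard error 0.081, 95% interval -0.55 to -0.19, adjusted p = 0.012 from limma). At 1.29-fold the change is under the 1.5-fold limit, so *Cyp26a1* was not called. The exact permutation test gave p = 0.057.

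*Cyp26b1*, the related enzyme, read 67.5, 66.3, 75.0 and 68.5 in luciferase neurons and 71.0, 61.3 and 58.1 in blank neurons. The groups overlapped through blank replicate 5. The log2 difference was 0.13 (95% interval -0.07 to 0.33, adjusted p = 0.31). The difference between the 2 *Cyp26* genes was not tested.

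*Rarb*, the receptor that retinoic acid itself induces in many cells, read 122, 125, 119 and 65.4 in luciferase neurons and 129.7, 132 and 108 in blank neurons. Luciferase replicates 1 to 3 lay within the range of blank, and replicate 4 stood at 65.4 alone. The log2 difference was -0.24 (95% interval -0.71 to 0.24, adjusted p = 0.43, exact permutation p = 0.63). Without luciferase replicate 4 it was -0.01 (adjusted p = 0.94), so the lower mean of *Rarb* rests on that array. On the same array *Cyp26a1* read 67.9, the lowest of the 4, and *Crabp1* 205, also the lowest. *Aldh1a1* and the second *Rdh10* probe set were lowest there too, whereas *Rbp4* at 361 and *Crabp2* at 28.9 were the highest of the 4. The remaining probe sets lay in between.

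**Figure D2:**
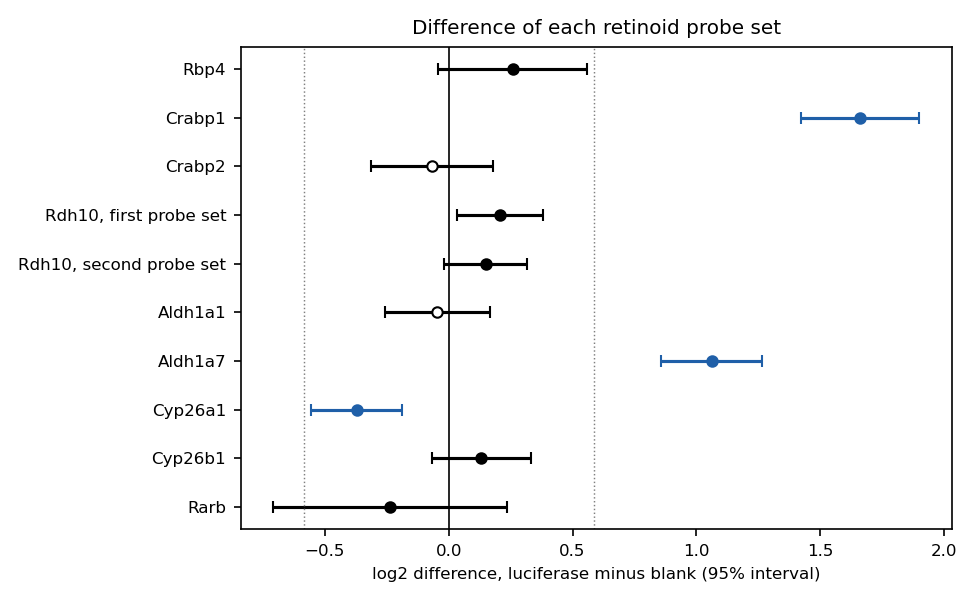
The log2 difference of luciferase minus blank is plotted with its 95% interval for each of the 10 probe sets, in blue where the adjusted p was at most 0.05, with open circles for the 2 probe sets fitted only without the filter on level and dotted lines at 1.5-fold. *Crabp1* and *Aldh1a7* lie beyond 1.5-fold with their whole interval, *Cyp26a1* lies below 0 but inside the limit, and *Rarb* has the widest interval, -0.71 to 0.24.

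The 3 results past the adjusted p moved little with the processing. *Crabp1* passed the adjusted p in all 15 alternatives, with log2 changes of 1.57 to 1.79. *Aldh1a7* passed in the 13 that test it (0.97 to 1.13), and *Cyp26a1* in the 14 that test it (-0.47 to -0.33). None of the 8 tested probe sets changed sign in any alternative. Centring each array on its median moved all genes by 0.10 on the log2 scale, and this scaling bears on the direction over the array as a whole: of the called probe sets 69.15% were higher as reported, 56.8% after quantile normalization and 43.8% after centring. The median log2 change of the 8 tested retinoid probe sets was 0.18, beside 0.06 over all tested probe sets.

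**Figure D3:**
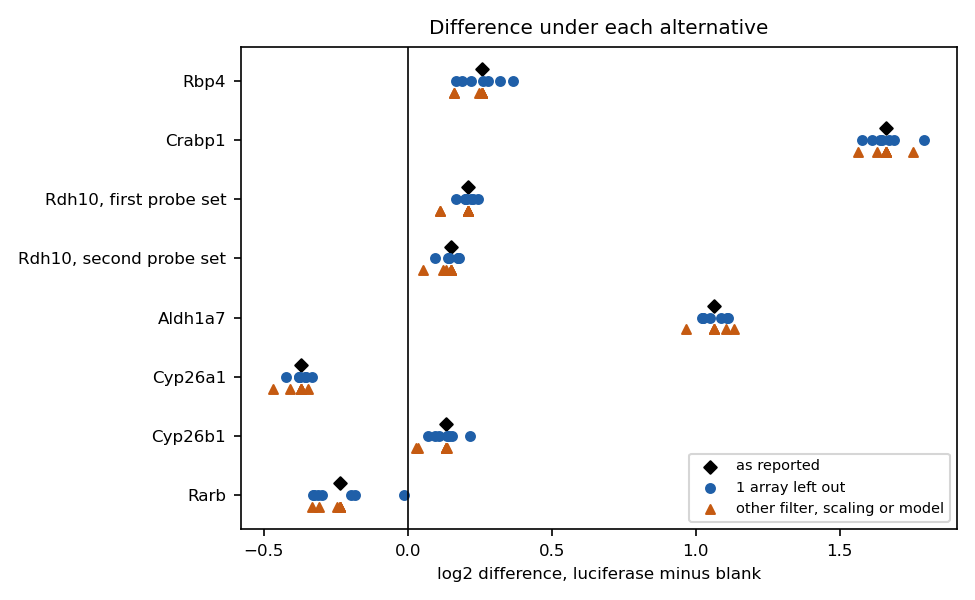
For the 8 tested probe sets, the log2 difference of luciferase minus blank is plotted as reported (black diamonds), with each of the 7 arrays left out in turn (blue circles) and under each other filter, scaling or model (orange triangles). The values of *Crabp1* stay between 1.57 and 1.79, and *Rarb* comes close to 0, at -0.01, without luciferase replicate 4.

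The genes that lay nearest to *Crabp1* in pattern were *Gal*, which encodes the neuropeptide galanin, and *Ada*, which encodes adenosine deaminase. Likeness is the root mean square difference over the 7 arrays of the log2 level relative to the mean of blank, and it was 0.18 for *Gal* and 0.20 for *Ada*. *Gal* read 227, 262, 253 and 302 in luciferase neurons and 85.0, 81.7 and 88.3 in blank neurons. *Ada* read 166, 132, 128 and 137 in luciferase neurons and 53.8, 45.0 and 49.0 in blank neurons. Both rose, by 1.61 and 1.51 on the log2 scale (adjusted p = 5.7e-05 and 9.8e-05). Nearest to *Aldh1a7* were *Pqlc3* (0.076) and *Vegfd* (0.094), which encodes a growth factor of lymphatic vessels. *Vegfd* read 572, 661, 659 and 713 in luciferase neurons and 298, 327 and 328 in blank neurons. Like *Aldh1a7*, the 2 rose by 1.04 and 1.03 (adjusted p = 6.4e-04 and 2.4e-04). These genes were picked for their likeness, so their change is a description.

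Of the other genes of the pathway, 70 had a probe set and 44 of these were tested, each by its probe set with the highest mean. The lists were those of further carriers, enzymes, receptors and cofactors, and genes known to respond to retinoic acid. They were chosen with earlier results of these data known. Of the 44, 10 rose and 3 fell at the adjusted p and 31 did not pass, where 25.4% of all genes taken in the same way passed, 16.9% higher and 8.55% lower. The count is near that of the array as a whole. The median log2 change was 0.04, beside 0.06 over all genes. The count of 13 was the least stable of the counts: it was 8 without luciferase replicate 4, 6 without blank replicate 5 and 7 without blank replicate 6. After centring it was 15, with 8 higher and 7 lower.

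None of the 3 tested carriers passed. *Stra6*, the membrane receptor that takes up retinol, lay under 50 on every array, between 37.8 and 48.2. *Ttr*, which encodes the plasma partner of *Rbp4*, read 75.3, 81.4, 81.5 and 91.1 in luciferase neurons and 85.2, 99.8 and 144.5 in blank neurons, a log2 difference of -0.38 that did not pass (adjusted p = 0.10).

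Of 17 tested enzymes 1 rose and 3 fell. *Rdh13*, which encodes a mitochondrial retinol dehydrogenase, rose by 0.30 (380, 367, 369 and 359 in luciferase neurons and 289.6, 293 and 314 in blank neurons, adjusted p = 0.014), though it missed the threshold without blank replicate 5 (adjusted p = 0.056). *Rdh9*, *Lipe* and *Rdh11* fell by 0.69, 0.48 and 0.27 (adjusted p = 0.025, 0.048 and 0.045). These falls were less stable, since *Lipe* passed in 5 of 13 alternatives *Rdh9* in 9 of 13 and *Rdh11* in 9 of 15, and in *Rdh9* and *Lipe* the groups overlapped. *Rdh9* reached 50 on blank arrays alone (2 of 3), so it entered the test through the group in which it is higher. In *Rdh9* the adjusted p went over 0.05 without luciferase replicates 1, 3 or 4 or blank replicate 6 (up to 0.067). In *Rdh11* it did so without luciferase replicates 1, 2 or 3 or blank replicates 5 or 7 (up to 0.13). In *Lipe* it did so without any 1 array but luciferase replicate 1 (up to 0.12). *Lipe*, which encodes hormone-sensitive lipase, releases retinol from stored esters. *Aldh1a2*, the main enzyme of retinoic acid synthesis in the embryo, read 10.8 to 12.9 on all arrays, and *Aldh1a3*, another member of that family, differed by -0.11 (adjusted p = 0.43). *Dhrs3*, which reduces retinaldehyde back to retinol and is itself induced by retinoic acid, read 212, 230.4, 189 and 145 in luciferase neurons and 231, 260.2 and 259 in blank neurons. All luciferase arrays of *Dhrs3* lay below all blank arrays, but the log2 difference of -0.38 did not pass (adjusted p = 0.080). Among the enzymes under 50 on every array, only *Sdr16c5* passed with no filter on level, lower by 0.40 (adjusted p = 0.014). It read 10.4 to 11.2 in luciferase neurons and 13.4 to 15.1 in blank neurons, where background may make up much of the signal.

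All 15 receptors and cofactors were tested, and 4 rose. *Ncoa1*, which encodes a coactivator of nuclear receptors, rose by 0.51 (877, 799.5, 817 and 920.0 in luciferase neurons and 612, 578 and 603 in blank neurons, adjusted p = 0.0026). *Nrip1*, which encodes a corepressor that retinoic acid induces, also rose by 0.51 (adjusted p = 0.0034). *Rora*, an orphan receptor of a related family, rose by 0.39, and *Rxrb*, a retinoid X receptor, rose by 0.32 (adjusted p = 0.026 and 0.019). *Ncoa1* and *Nrip1* passed in all 15 alternatives, *Rxrb* in 13 and *Rora* in 9. Both missed it without blank replicate 5 or 6, and *Rora* also without luciferase replicates 1, 3 or 4 and after centring (adjusted p up to 0.068 and 0.095). Apart from *Rxrb*, the retinoic acid and retinoid X receptors of this list did not pass. The log2 differences were -0.35 for *Rara*, -0.15 for *Rarg*, -0.22 for *Rxra* and -0.07 for *Rxrg* (adjusted p = 0.14, 0.43, 0.094 and 0.59). Over the alternatives *Rxra* passed in 3 of 15, *Rara* in 1 of 13, and *Rarg* and *Rxrg* in none. At this probe set of *Rxra* all luciferase arrays lay below all blank arrays. Its other tested probe set read a mean of 120.5 in luciferase neurons and 122.4 in blank neurons (log2 difference -0.02, adjusted p = 0.91).

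Of 20 genes that respond to retinoic acid and have a probe set, 9 lay under 50 on every array and were not tested. With no filter on level, *Tgm2* among these fell by 0.50 (adjusted p = 0.0085) and the others did not pass. *Tgm2* read 26.5 to 29.8 in luciferase neurons and 37.7 to 45.4 in blank neurons, where background may make up much of the signal. Of the 11 tested genes, 6 rose and none fell, with a median log2 change of 0.30. Over all genes 16.9% were higher and 8.55% lower, with a median of 0.06. This list was chosen with earlier results of these data known, so its count and median are a description. The 6 were *Ret*, *Nrip1*, *Tshz1*, *Nrgn*, *Drd2* and *Meis1*, with changes of 0.66, 0.51, 0.49, 0.46, 0.39 and 0.30. *Nrgn*, which encodes the synaptic protein neurogranin, read 4324, 4228, 4612 and 4428 in luciferase neurons and 3328, 3219.8 and 3032 in blank neurons. *Drd2*, the D2 dopamine receptor, read 79.4, 85.1, 82.4 and 76.7 in luciferase neurons and 56.3, 59.0 and 71.2 in blank neurons. *Ret*, a receptor tyrosine kinase, overlapped between the groups, and its other probe set read a mean of 67.8 in luciferase neurons and 68.4 in blank neurons. After centring 5 of the 11 rose and 2 fell, and after quantile normalization 6 rose and 1 fell. *Nrgn*, *Tshz1* and *Nrip1* passed in every alternative, and *Meis1* in 6 of 14. *Drd2* and *Ret* missed the threshold without blank replicate 5 or 6 (adjusted p up to 0.068 and 0.083), *Ret* also without luciferase replicates 2 or 4, and *Meis1* without luciferase replicates 1, 2 or 4 or blank replicates 5 or 7 (up to 0.15 over all its alternatives). *Rarb* and *Cyp26a1*, which retinoic acid also induces, differed by -0.24 and -0.37. Of the 9 genes other than these 2 whose window holds a DR5 element and that have a probe set, 4 were tested, none rose and 1, *Syndig1*, fell by 0.36 (adjusted p = 0.012). These 9 genes were listed after the values had been seen.

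**Figure D4:**
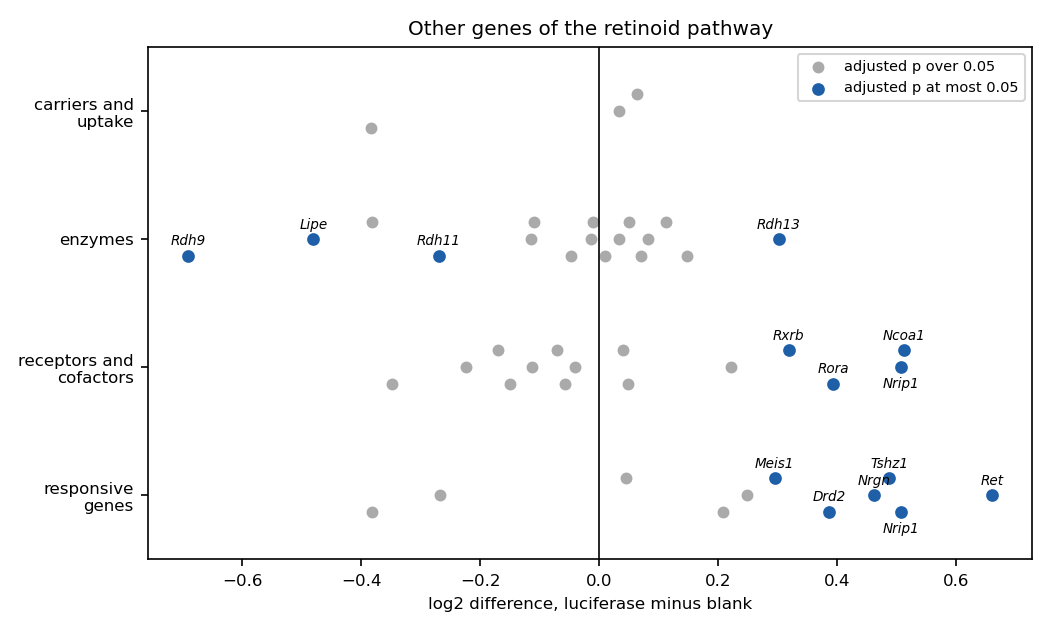
The log2 difference of luciferase minus blank is plotted for each tested gene of the 4 lists (further carriers and uptake, enzymes, receptors and cofactors, genes that respond to retinoic acid), in blue with its name where the adjusted p was at most 0.05 and in grey otherwise. The receptors and responsive genes past the threshold all lie to the right, from 0.30 to 0.66, and 3 of the 4 enzymes past it lie to the left.

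Genes of other cell types were set beside these results, since a culture of cortical neurons can also hold glia and cells of vessels and meninges. In bulk RNA, a change in the number of cells of a type and a change of RNA per cell cannot be told apart. For every count of marker genes here and below, the share over all genes was 16.9% higher and 8.55% lower. The marker lists too were chosen with earlier results of these data known. Of 16 tested genes of cortical projection neurons 3 rose and 1 fell, and their summed level was 37222 to 38992 in luciferase neurons and 35340 to 37719 in blank neurons. *Tbr1* rose by 0.61 and *Neurod6* fell by 0.68 (adjusted p = 0.0020 and 0.0021). The list also holds genes of neurons in general. *Snap25*, *Syt1*, *Map2*, *Rbfox3* and *Tubb3* have the highest levels in it, so the sum is not one of projection neurons alone. Of 17 tested astrocyte genes 10 rose and none fell, and their summed level was 49824 to 55072 in luciferase neurons and 40146 to 44571 in blank neurons. *Fabp7* and *Aldoc*, which have the highest levels in this sum, did not pass (adjusted p = 0.16 and 0.081). *Gfap*, which encodes the astrocyte filament protein, rose by 1.19, *Aqp4*, the water channel, by 0.82 and *Aldh1l1* by 0.86, while *Gjb6* lay under 50 on every array. With 1 array left out the count ran from 7 (without blank replicate 5) to 12 (without blank replicate 7), and after centring it was 8. The part of astrocytes in the rise of *Crabp1* and *Aldh1a7* was not tested.

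Of 7 tested genes of vascular and meningeal cells 1 rose and 2 fell. Of the 2, *Col1a2* reached 50 on blank arrays alone and so entered the test through the group in which it is higher. The summed level of the 7 was 651 to 873 in luciferase neurons and 1077 to 1212 in blank neurons, and without *Dcn* it was 291 to 332 and 273 to 317, with the groups overlapping. *Dcn*, which encodes a matrix protein of fibroblasts, fell from a mean of 834.7 in blank neurons to 421 in luciferase neurons (adjusted p = 0.0022), whereas *Pdgfrb*, a pericyte receptor, rose by 0.70. The remaining 11 of 18, *Cldn5*, *Pecam1*, *Cdh5*, *Col1a1*, *Col3a1* and *Foxc1* among them, lay under 50 on every array. Of 3 tested choroid plexus genes 1 fell, *Clic6* by 0.51, and their summed level was 171 to 203 in luciferase neurons and 213 to 268 in blank neurons. The part of these cells in the lower *Cyp26a1* was not tested. Of 11 tested genes of striatal projection neurons, where *Drd2* belongs, 5 rose and 1 fell, with a summed level of 3135 to 3365 in luciferase neurons and 2906 to 3096 in blank neurons. None of 3 tested microglia genes passed, and *Aif1* and *Cx3cr1* lay under 50 on every array.

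**Figure D5:**
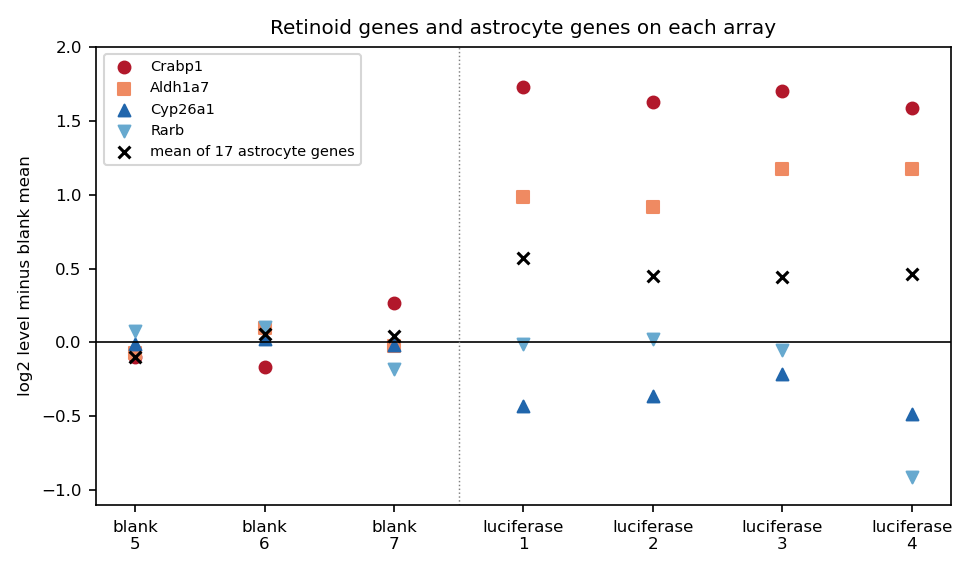
The log2 level relative to the mean of blank is plotted on each of the 3 blank and 4 luciferase arrays for *Crabp1*, *Aldh1a7*, *Cyp26a1* and *Rarb*, with the mean of the 17 tested astrocyte genes as crosses. On the luciferase arrays *Crabp1* lies between 1.59 and 1.73 and *Aldh1a7* between 0.92 and 1.18, above the astrocyte mean of 0.45 to 0.57, *Cyp26a1* lies between -0.48 and -0.21, and *Rarb* is near 0 except on replicate 4, at -0.91. The astrocyte crosses are a mean, and single genes differ from it. Of the 17, *Gfap* rose by 1.19, more than the 1.06 of *Aldh1a7*, and the others rose by less.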

How the data were processed

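RNA of 7 cultures was hybridized to Affymetrix Mouse 430_2 arrays. The authors normalized the arrays with RMA, left out 1 untransduced sample after quality control and deposited intensity values without a log. No RMA version is named there. The blank columns of the table start 1 row low and were moved up by 1 row (r = 0.995 between the log2 group means after the move and 0.376 to 0.421 for other moves). The table held 0 columns of other samples.

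From the deposited intensity, log2 values of luciferase minus those of blank were fitted in limma 3.58.1 (R 4.3.3) by lmFit and eBayes without covariates, with Benjamini-Hochberg adjustment over 22748 probe sets. These are the probe sets that are no controls, lack _x in the name and reach 50 on at least 1 array. The median level of these was 237 to 241 on luciferase arrays and 216 to 235 on blank arrays, and the number of arrays limits the precision. Single values were also compared with the exact permutation test. Sequences are from a RefSeq table of GRCm38.p6. The limma step was tested on simulated data.

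Groups come from the treatment label. The 9 genes and the lists were chosen with earlier results of these data known. The named genes are the 9 with every probe set, up to 6 genes past the adjusted p per pathway list with the largest change, central pathway genes, the leading genes of marker lists and the 2 genes most like each called gene. *Syndig1*, *Ttr*, *Dcn*, *Pdgfrb*, *Col1a2*, *Clic6*, *Gjb6* and the marker genes under 50 outside the rule were named after their values were seen. So were *Tgm2*, *Sdr16c5*, *Snap25*, *Syt1*, *Map2*, *Rbfox3*, *Tubb3*, *Fabp7* and *Aldoc*. Marker lists for GABA neurons (12 tested, 2 higher, 1 lower), the oligodendrocyte lineage (10 tested, 1 higher, 1 lower, which reached 50 on blank arrays alone) and dividing cells and progenitors (11 tested, 3 higher, none lower) were read too. The alternatives were no filter, stricter filters (100 on 1 array, 50 on every array), quantile normalization, median centring, a robust trend, array weights, probe sets with _x kept and each array left out.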

Additional observations from a re-analysis of the deposited data

Results flagged for a closer look

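In 2 of 31 named results 1 luciferase array stood apart from the other 3 by Dixon's ratio, the gap to the nearest array over the whole range (the 95% critical value for 4 arrays was used). Chance alone gives about 1 in 20 groups. In *Rarb* the lowest array was replicate 4, with a ratio of 0.920. In the second *Rdh10* probe set it was also replicate 4, with a ratio of 0.888. Over all tested probe sets replicate 4 stood apart in 1.88%, where replicates 1 to 3 did so in 1.31%, 1.11% and 1.05%.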

How the results depend on the processing

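No paired analysis was possible because the groups share no replicate number (1 to 4 against 5 to 7). The 8 tested retinoid probe sets kept their direction in every alternative. The count of called retinoid probe sets, 2 as reported, was 1 where a probe set must reach 100 on 1 array and 1 where it must reach 50 on every array, because *Aldh1a7* is then not tested. The count past the adjusted p, 3 as reported, was 1 at 100 on 1 array, where *Cyp26a1* is not tested either. With each array left out in turn these counts stayed at 2 and 3. The first *Rdh10* probe set passed with array weights only (0.21, adjusted p = 0.029), and the cause was not tested. The count of other retinoid genes, 13 as reported, ran from 6 to 14 with 1 array left out and was 19 with array weights. The count of all called probe sets, 953 as reported, ran from 772 to 1120. Signal over background limits what can be said of *Crabp2*, *Aldh1a1* and the blank arrays of *Aldh1a7*.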
